A study of Macaca fascicularis with 2 samples.

Results

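NANOG/TFAP2C germ cells are the cells of the fetal monkey ovary in which RNA of early germ cell factors was counted together. They were chosen by measured values: a cell had to hold at least 3 UMIs (unique molecular identifiers, each marking 1 captured RNA molecule) of NANOG, TFAP2C, SOX15 and LIN28A summed, with at least 2 of the 4 genes detected and at least 2 such UMIs per 10000 UMIs of the cell. 286 of 20967 cells met the rule, which is 1.36% (exact 95% binomial interval 1.21 to 1.53%). The working name of this population is mitotic primordial germ cells, and each word of it was set against the data below.

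Ovaries of Macaca fascicularis fetuses, for which the labels give no genotype or treatment, were dissociated and captured with droplet-based 3′ single-cell chemistry. One library held both ovaries of 1 fetus at embryonic day 84 (E84), and the other both ovaries of 1 fetus at E116. The table of UMI counts joins the libraries, and its cell barcodes end in 1 (10621 cells) or 2 (10346 cells) and the sources used here do not tie an ending to E84 or E116. The whole table was therefore read as 1 pooled sample, no comparison of stages was made, and no test was run, because cells of 1 animal are not replicates.

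Primordial germ cells are the embryonic founders of eggs and sperm. They keep a network of pluripotency factors active, in which TFAP2C, SOX17 and PRDM1 are known as specifiers of the primate germ line and NANOG and LIN28A as factors shared with embryonic stem cells. In the fetal ovary these cells divide by mitosis, then lose the pluripotency factors and enter meiosis under BMP signals, which act through ZGLP1, and retinoic acid, which induces STRA8.

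The members were deep cells, with a median of 14840.5 UMIs (1849 to 105930) and 3828.5 genes, against a median of 3756 UMIs over all cells. 50 of the 286 had at most 3000 genes, the upper limit stated in the study's methods, so that limit would have taken out most of them. Barcodes ending in 1 held 275 members (2.59% of those cells, 2.30 to 2.91%) and barcodes ending in 2 held 11 (0.106%, 0.0531 to 0.190%). 27 barcodes occurred under both endings, 1 of them that of a member. A single member with barcode ending 2 was also the deepest, at 105930 UMIs, and stood apart: it had 21 NANOG and 3 TFAP2C UMIs, no DPPA4 or SOX17 UMI, and 169 UMIs of ASTL, 112 of ZAR1 and 187 of PADI6, which are genes of the growing oocyte. Results that rested on this cell are given with and without it.

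Levels are UMIs of all cells of a set summed and scaled to counts per 1000000 UMIs (CPM). Their intervals are exact 95% Poisson intervals, which cover counting error only and neither animals nor libraries. The other sets of cells served as reference. Premeiotic marker cells (567) met a rule of the same form on ZGLP1, STRA8 and REC8. Prophase marker cells (931) met it on SPO11, DMC1, MEIOB and TEX11, and germ-marker-free cells (6324) had at least 1000 UMIs and no UMI of 21 germ cell genes. Of the members, 5 also met the premeiotic rule, 7 the prophase rule and 62 a rule of the same form on a list of oocyte genes.

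The genes of the rule give its description and are no finding. NANOG, a homeobox factor of pluripotency, was detected in 270 of the 286 members and had 217 CPM (204 to 230) in them. TFAP2C, an AP-2 transcription factor, was in 230 members at 117 CPM, SOX15 in 215 at 85.3 CPM, and LIN28A, an RNA-binding protein that blocks let-7 maturation, in 163 at 51.9 CPM. All 4 genes were found in 92 members, 3 of them in 122 and 2 in 72. Among the 72 members with exactly 2 rule genes, the most frequent pair was NANOG with SOX15, in 29. Members held 65.2% of all NANOG UMIs of the table, 61.4% of TFAP2C, 48.7% of SOX15 and 52.4% of LIN28A.

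The rule's edge was not sharp. The 31 members with exactly 3 rule UMIs had DPPA4 at 211 CPM and ZGLP1 at 64.5 CPM, against 271 and 16.2 CPM in the 255 members with more. Just outside, 23 cells with 2 rule UMIs of 2 genes had DPPA4 at 139 CPM, ZGLP1 at 57.0 CPM and the collagen gene COL1A1 at 1931 CPM. Another 13 cells with at least 3 UMIs of only 1 rule gene had DPPA4 at 207 CPM. Cells just under the floor (1.5 to 2 rule UMIs per 10000, 20 cells) had DPPA4 at 205 CPM, and cells just over it (2 to 2.5 per 10000, 22 cells) had 123 CPM.

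Germ cell identity was checked with genes that the rule did not use. POU5F1 and 5 other genes of the pluripotency list (DPPA2, UTF1, ZFP42, KLF2 and KLF17) and TBXT of the specification list have no row under those symbols in the table. DPPA4, a nuclear protein of pluripotent and primordial germ cells, had UMIs in 93.4% of members. SOX17, the transcription factor that specifies primate germ cells, had UMIs in 68.5%, and PRDM1, a repressor of somatic programmes, in 55.2%. KIT, the receptor for the growth factor that keeps germ cells alive, had UMIs in 77.6% of members. The later germ cell genes DAZL and DDX4, which encode RNA-binding proteins, were found in 85.7 and 80.4% of them.

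Detection depends on depth, so every cell was also thinned at random to 3000 UMIs, which left out 4 members, 30 premeiotic marker cells and 2451 germ-marker-free cells as too shallow. At that depth DPPA4 was detected in 53.9% of members (exact 95% binomial interval 47.9 to 59.8%), in 15.1% of premeiotic marker cells (12.2 to 18.4%) and in 0.568% of germ-marker-free cells (0.356 to 0.859%). The last value comes from cells chosen for having no UMI of 21 germ cell genes, so it can understate the background in members. Their median depth before thinning was 3781.5 UMIs. SOX17 was in 30.1% (24.8 to 35.9%), 7.45% and 2.19% of the same sets. PRDM1 was in 17.4% (13.1 to 22.3%), 3.17% and 1.76%. For each of these genes the interval of the members lay above those of both other sets. KIT was in 30.1% of members (24.8 to 35.9%) and 23.5% of premeiotic marker cells (19.9 to 27.3%), and these intervals overlapped.

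**Figure D1:**
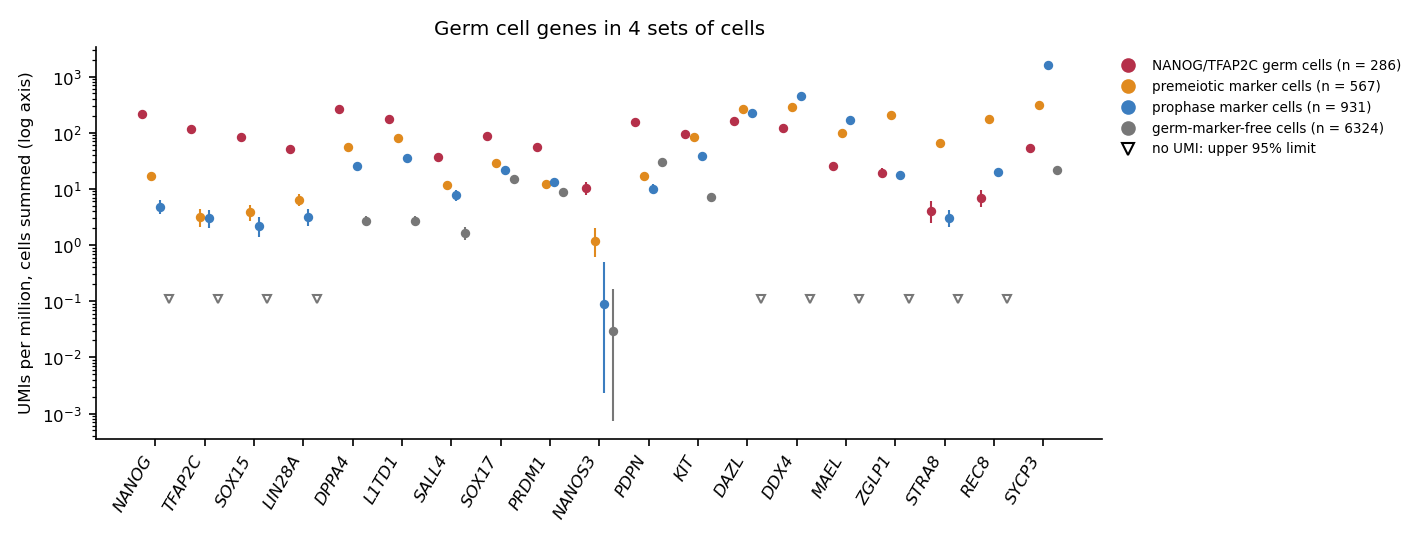
Levels of germ cell genes in CPM (log axis), with the cells of each set summed. Points are levels, bars exact 95% Poisson intervals, and open triangles the upper limit where a set had no UMI. The first 4 genes chose the NANOG/TFAP2C germ cells, and ZGLP1, STRA8 and REC8 chose the premeiotic marker cells. DPPA4, SOX17, PRDM1, NANOS3 and PDPN were highest in the NANOG/TFAP2C germ cells, while DDX4, MAEL and SYCP3 were highest in the prophase marker cells.

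Against premeiotic marker cells, 8906 genes reached 10 CPM in 1 of the 2 sets once the genes of both rules were set aside. A gene was counted as higher or lower where its levels differed at least 2-fold. Of the 8906 genes, 922 were higher in members (10.4%) and 1386 lower (15.6%), and the median log2 ratio over all of them was −0.20. Ratios below are to be read against that shift. It narrowed to −0.10 with CPM computed without ribosomal protein and mitochondrial genes. All ratios are descriptions of 2 sums of cells, and the bracketed range of a log2 ratio is its exact 95% counting interval. Barcodes ended in 1 and 2 in 275 and 11 members but in 347 and 220 premeiotic marker cells. A ratio therefore also holds any difference between endings. Within ending 1, CRABP1 had 242 against 12.9 CPM, a smaller ratio than over both endings, and PAX6 7.61 against 134 CPM, a larger one.

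Pluripotency genes outside the rule lay mostly on the higher side. Of 14 counted genes (of 29 listed, 23 of them in the table), 10 were higher in members and none lower, with a median log2 ratio of 1.60. DPPA4 had 268 CPM (254 to 282) in members and 55.2 CPM in premeiotic marker cells, a log2 ratio of 2.28 (2.14 to 2.42). TRIM71, a ubiquitin ligase and RNA-binding repressor of stem cells, had 154 against 53.0 CPM. L1TD1, an RNA-binding protein of pluripotent cells, had 173 against 80.4 CPM, a ratio of 2.15. The factor SALL4 had 37.0 against 11.6 CPM.

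Within the same list the largest ratios belonged to low genes. TFCP2L1, a factor of the naive pluripotent state, had 19.7 CPM in members and 1.66 CPM in premeiotic marker cells, an 11.9-fold difference. ETV4 and ETV5, which respond to FGF signalling, had 70.9 against 9.85 CPM and 31.8 against 4.78 CPM. LIN28B, a paralogue of the rule gene LIN28A, was near level between the sets at 46.6 and 41.2 CPM. KLF5 had 23.0 against 37.3 CPM, and without the cells that met the granulosa rule described below 11.9 against 35.3 CPM.

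Of 11 counted genes for germ cell specification and surface proteins, 7 were higher in members and 1 was lower. PRDM1 had 56.3 CPM (50.1 to 63.2) in members against 12.0 CPM, a 4.69-fold difference, and SOX17 had 88.5 CPM (80.6 to 97.0) against 28.4 CPM, 3.12-fold. NANOS3, an RNA-binding protein needed for primordial germ cell survival, had 10.3 against 1.17 CPM. PDPN, the sialoglycoprotein podoplanin, had 158 CPM in members, 16.8 CPM in premeiotic marker cells and 10.1 CPM in prophase marker cells. Each of these 4 genes had its highest level in members, germ-marker-free cells included.

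Surface genes differed in how they parted the sets. ITGA6, an integrin used to sort human germ cells, had 423 CPM (405 to 441) in members and 133 CPM in premeiotic marker cells, but also 267 CPM in germ-marker-free cells. KIT had 96.6 against 82.6 CPM, a log2 ratio of 0.22 (0.06 to 0.39), and EPCAM 79.1 against 61.5 CPM. GATA2 was the 1 gene counted as lower, at 8.43 against 19.5 CPM.

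RNA-binding and piRNA genes of the germ line were mostly on the lower side. Of 24 counted genes, 12 were lower in members and 2 higher, with a median log2 ratio of −1.06. DDX4, a helicase of germ granules, had 122 CPM (113 to 132) in members, 285 CPM in premeiotic marker cells and 448 CPM in prophase marker cells. MAEL, a piRNA pathway protein, had 25.5, 99.5 and 167 CPM in the same order. DAZL, a translational regulator, had 162, 262 and 225 CPM, so its log2 ratio against premeiotic marker cells was −0.69 (−0.81 to −0.58) and it was not counted as lower. The piRNA genes HENMT1 (28.4 against 105 CPM) and TDRD1 (9.01 against 45.7 CPM) were lower.

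The 2 genes on the higher side of that list were DND1 and PIWIL4. DND1, which shields messenger RNAs from microRNAs in germ cells, had 110.2 against 53.9 CPM, and 125 CPM in prophase marker cells. PIWIL4, a piRNA-binding Argonaute protein, had 15.5 CPM (12.3 to 19.3) in members against 0.39 CPM, which is 4 UMIs, in premeiotic marker cells, a log2 ratio of 5.31 (3.90 to 7.22). UMIs of PIWIL4 were in 18.9% of members.

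Genes of meiotic prophase were lower in members almost throughout. Of 17 counted, 15 were lower and none higher, with a median log2 ratio of −1.95. SMC1B, the meiotic cohesin subunit, had 56.5 CPM (50.3 to 63.4) in members, 766 CPM in premeiotic marker cells and 1500 CPM in prophase marker cells. SYCP3, a structural protein of the synaptonemal complex, had 54.0, 310.2 and 1597 CPM. HORMAD1, which monitors chromosome pairing, had 11.7, 110.5 and 396 CPM. Thinned to 3000 UMIs, SYCP3 was in 13.5% of thinned members (9.72 to 18.0%) and in 6.20% of thinned germ-marker-free cells (5.46 to 7.00%), and SMC1B in 12.4% (8.80 to 16.8%) and 4.85% (4.20 to 5.58%). At 1000 UMIs, which kept all members, the intervals overlapped: SYCP3 was in 2.45% of members (0.990 to 4.98%) and 3.38% of germ-marker-free cells (2.95 to 3.86%), and SMC1B in 4.20% (2.19 to 7.21%) and 3.45% (3.01 to 3.93%). The members' share was therefore above that of germ-marker-free cells at the greater depth and not apart from it at the lesser one. Those cells were chosen for having no UMI of 21 germ cell genes, so they can understate free germ cell RNA. Whether the meiotic RNA was the members' own was not tested.

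Among 15 counted genes of meiotic entry and retinoic acid response, 10 were lower in members and 2 higher. RFX6, a transcription factor, had 5.17 CPM (3.41 to 7.53) in members against 149 CPM, the lowest ratio of any gene with a symbol and at least 20 CPM in premeiotic marker cells. Its level in members rested on few cells: 17 of its 27 UMIs were in 2 cells with ending 2, and the 275 members with ending 1 had 2.06 CPM against 59.6 CPM in premeiotic marker cells of that ending. MSX1, a homeobox factor downstream of BMP signals, had 10.5 against 97.9 CPM, and ID3, another BMP target, 42.5 against 279.8 CPM. ID1 did not follow ID3, at 276 against 232 CPM. CYP26A1, the enzyme that degrades retinoic acid, had 33.2 against 176 CPM, and the receptor gene RARB 15.3 against 83.1 CPM. The genes on the higher side were CRABP1 and ETV3, a transcription factor with 36.2 against 17.7 CPM.

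CRABP1 and CRABP2 encode cytosolic retinoic acid-binding proteins, and their levels went opposite ways. CRABP1 had 230.2 CPM (217 to 244) in members, 7.42 CPM in premeiotic marker cells, 5.32 CPM in prophase marker cells and 1.82 CPM in germ-marker-free cells. CRABP2 had 3.26 CPM in members against 45.2 CPM in premeiotic marker cells and 22.5 CPM in germ-marker-free cells. After thinning, CRABP1 was in 47.2% of members (41.2 to 53.2%), 2.05% of premeiotic marker cells and 0.491% of germ-marker-free cells.

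**Figure D2:**
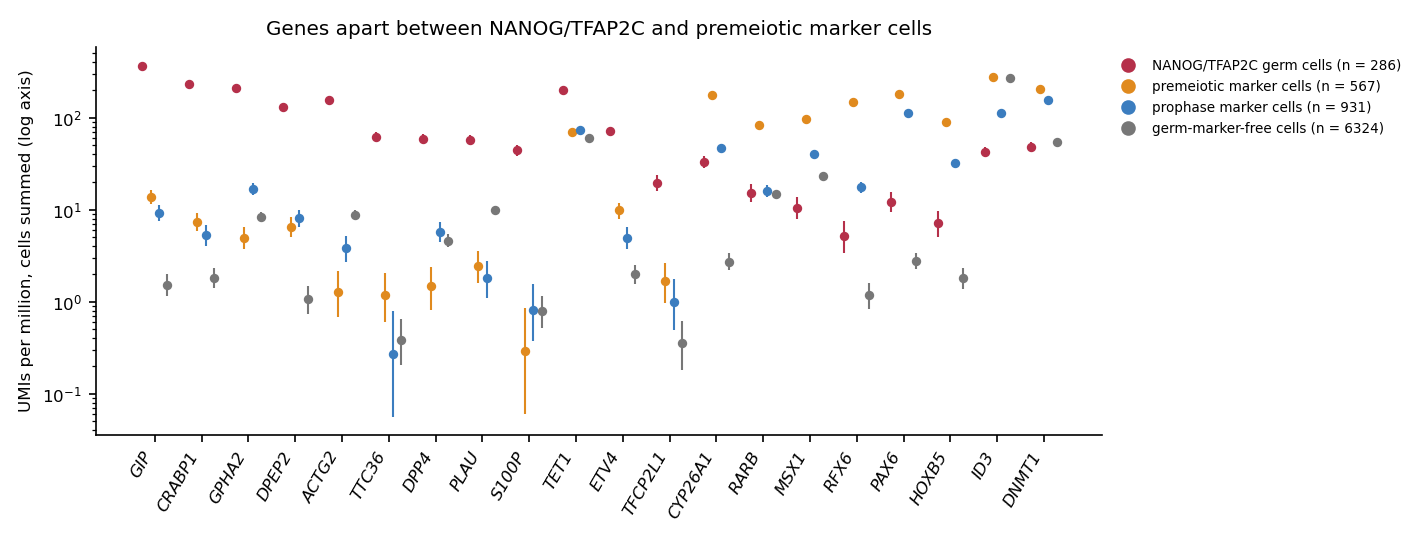
Levels in CPM (log axis) of genes from the lists and of genes named for their ratio against premeiotic marker cells. Points are levels of summed cells and bars exact 95% Poisson intervals. The genes on the left, from GIP to TFCP2L1, were at least 2-fold higher in NANOG/TFAP2C germ cells than in premeiotic marker cells, and the genes on the right, from CYP26A1 to DNMT1, at least 2-fold lower.

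Of 8 counted oocyte genes, 6 were higher in members and 1, NLRP7, was lower (185 against 417 CPM). Without the deepest member only 2 were counted, of which none was higher and 1 lower, so the higher calls of this list rested on 1 cell.

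Genes with the highest ratios over all symbols were mostly ones with no listed germ cell role. S100P, a calcium-binding protein, led with 44.1 CPM in members and 3 UMIs in premeiotic marker cells, a log2 ratio of 7.23 (5.67 to 9.52). ACTG2, the smooth muscle gamma actin, followed with 154 against 1.27 CPM and was detected in 70.6% of members. ADTRP, TTC36, HDC (histidine decarboxylase) and BSPRY had 34.9 to 62.1 CPM in members and at most 1.17 CPM in premeiotic marker cells. BSPRY had 26.0 CPM in prophase marker cells, which the other 3 genes did not approach.

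Several secreted or cell-surface proteins were among them. GIP, which encodes an intestinal hormone precursor, had 361 CPM (345 to 378) in members, 13.8 CPM in premeiotic marker cells and 1.53 CPM in germ-marker-free cells, and UMIs in 93.0% of members. GPHA2, a glycoprotein hormone subunit, had 210.4 against 4.98 CPM. DPP4, a surface peptidase, had 59.2 against 1.46 CPM, and PLAU, the urokinase-type plasminogen activator, 57.3 against 2.44 CPM. The rest of the leading 15 were NFE2, BCL2L15, CRABP1, MGLL and ASTL. ASTL, the oocyte protease ovastacin, dropped from 33.5 to 1.17 CPM without the deepest member, so its place rested on that cell. Among genes without a symbol, those of highest ratio were ENSMFAG00000046145 (25.1 against 0.20 CPM) and ENSMFAG00000004232 (867 against 9.46 CPM, in 95.5% of members).

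Against germ-marker-free cells, 9259 genes were counted, of which 1514 were higher in members (16.4%) and 1602 lower (17.3%). The genes of highest ratio were GIP, ADTRP, BCL2L15, TTC36, CRABP1, DPEP2, TRIML2, DPPA4, HDC and BSPRY. TRIML2, a tripartite-motif family gene, had 177 CPM in members, 31.6 CPM in premeiotic marker cells and 1.53 CPM in germ-marker-free cells. DPEP2, a membrane dipeptidase, had 130.5, 6.54 and 1.06 CPM. Thinned shares for GIP were 60.6% of members (54.7 to 66.4%), 3.72% of premeiotic marker cells and 0.310% of germ-marker-free cells.

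Among the lowest ratios against premeiotic marker cells were those of RFX6, CALY, AGXT, PAX6, CRABP2, CRYGC, SMC1B, HOXB5 and ESX1. PAX6, a homeobox factor of eye and pancreas, had 12.3 CPM in members against 180 CPM, and 112 CPM in prophase marker cells. CALY, a vesicle protein of neurons, had 9.39 against 230.3 CPM. HOXB5 drew attention to its family, so all HOX genes were examined after their values had been seen. Of 21 counted, 14 were lower in members and none higher, and their median log2 ratio was −2.15. HOXB5 had 7.09 against 90.0 CPM and HOXA5 15.9 against 61.5 CPM. With CPM free of ribosomal protein and mitochondrial genes, 13 of 22 HOX genes were lower and 1 was higher.

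The word mitotic in the working name was set against 2 cell cycle lists. Compared with premeiotic marker cells, 23 of 39 counted S phase genes were lower in members and none was higher, and of 47 G2 and mitosis genes 26 were lower and none higher. Median log2 ratios were −1.07 and −1.09. MKI67, the proliferation antigen, had 114 CPM (105 to 123) in members, 312 CPM in premeiotic marker cells, 180 CPM in prophase marker cells and 38.7 CPM in germ-marker-free cells. TOP2A, the topoisomerase of dividing chromosomes, had 231, 621, 935 and 92.6 CPM in that order. PCNA, the replication clamp, had 160 against 370 CPM in premeiotic marker cells. UNG, an S phase list gene that encodes a DNA repair glycosylase, was not lower, at 310 against 263 CPM.

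Against germ-marker-free cells the same lists lay on the other side. There, 20 of 36 counted S phase genes and 26 of 45 G2 and mitosis genes were higher in members and none was lower. In single cells the members also lay between these sets. The S phase list had a median of 26.3 UMIs per 10000 in members, 51.4 in premeiotic marker cells, 56.5 in prophase marker cells and 10.1 in germ-marker-free cells. For the G2 and mitosis list the medians were 28.4, 54.7, 70.1 and 13.0.

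The upper end of the members overlapped the premeiotic cells. 32 members (11.2%) reached the premeiotic median of the S phase list and 42 (14.7%) that of the G2 and mitosis list, as did 120 (1.90%) and 267 (4.22%) of the germ-marker-free cells. Clustering the members on genes outside the rule put 38 of them, all with barcode ending 1, in a set with medians of 57.2 and 73.0 list UMIs per 10000. That set was made from these genes, so its levels are a description: MKI67 had 472 CPM in it against 57.4 CPM in the other members. GIP (443 against 348 CPM) and DPPA4 (306 against 262 CPM) were present in both. Most members lay below the premeiotic median of both lists, but the medians of both lists were highest in prophase marker cells. A level below the premeiotic median therefore does not tell whether a cell was mitotic, and this was not tested. The cells are named here by their rule genes, NANOG and TFAP2C.

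**Figure D3:**
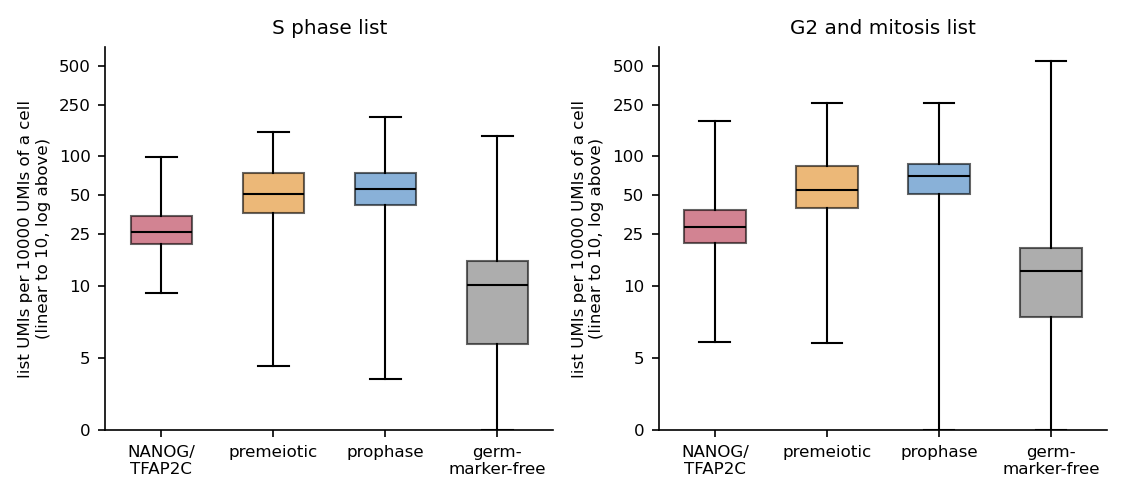
UMIs of the S phase list (left) and of the G2 and mitosis list (right) per 10000 UMIs of each cell. Boxes span the quartiles with the median as a line, and whiskers reach the lowest and highest cell of each set. NANOG/TFAP2C germ cells have medians of 26.3 and 28.4, between germ-marker-free cells (10.1 and 13.0) and premeiotic marker cells (51.4 and 54.7).

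DNA methylation genes are followed in primordial germ cells because these cells erase most of their methylation. Of 14 counted genes for DNA methylation and chromatin, 2 were higher in members and 1 lower, with a median log2 ratio of −0.14. Over all genes 10.4% were higher and 15.6% lower, with a median of −0.20, so the list as a whole did not stand apart. TET1 and TET2, which oxidise methylcytosine, were the higher ones, at 198 against 69.8 CPM and 31.4 against 12.0 CPM. DNMT1, the maintenance methyltransferase, was the lower one, at 48.5 against 206 CPM. Its partner UHRF1, kept in the S phase list, had 13.0 against 45.7 CPM. SUZ12 of the Polycomb complex had 322 against 228 CPM and TRIM28, a corepressor, 249.9 against 278 CPM, both within 2-fold.

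Of 18 counted growth factor receptor and signal genes, 3 were higher in members and none lower. Over all genes 10.4% were higher and 15.6% lower. The median log2 ratio of the list was 0.29, against −0.20 over all genes, and its sign changed between alternatives. The count of higher genes is therefore not read as a trait of the list. The higher genes were ACVR1B, an activin receptor, with 61.3 against 18.2 CPM, LIFR, the receptor of leukaemia inhibitory factor, with 18.6 against 6.05 CPM, and ERBB3 with 16.7 against 4.49 CPM. FGFR3 had 105 CPM in members and 149 CPM in premeiotic marker cells. BMPR1A, BMPR1B and BMPR2, receptors of bone morphogenetic proteins, lay within 2-fold of premeiotic marker cells.

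Ribosomal protein genes made up more of the members' RNA, a comparison added after the values had been seen. The 53 such genes with a symbol took 19.6% of the members' UMIs, against 10.1% in premeiotic, 8.70% in prophase and 13.5% in germ-marker-free cells. Against premeiotic marker cells, 21 of 51 counted genes were higher and 1 was lower. RPS29 had the largest ratio of them, with 7139 against 1839 CPM. In single cells, 282 of 286 members (98.6%) reached the premeiotic median.

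Some of the most abundant genes outside that list also differed. EEF1A1, the translation elongation factor, had 6358 CPM in members and 2476 CPM in premeiotic marker cells, TPT1 5116 against 1926 CPM, and RACK1, a ribosome-bound scaffold, 2949 against 1175 CPM. HSP90AA1, an inducible chaperone, had 3763 against 7984 CPM, the reverse order. Of the other genes among the most abundant, FAU, HSP90AB1, ACTG1, PTMA and FTL lay within 2-fold. The median share of mitochondrial UMIs was 7.55% in members and 12.1% in premeiotic marker cells, and its part in these differences was not tested.

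**Figure D4:**
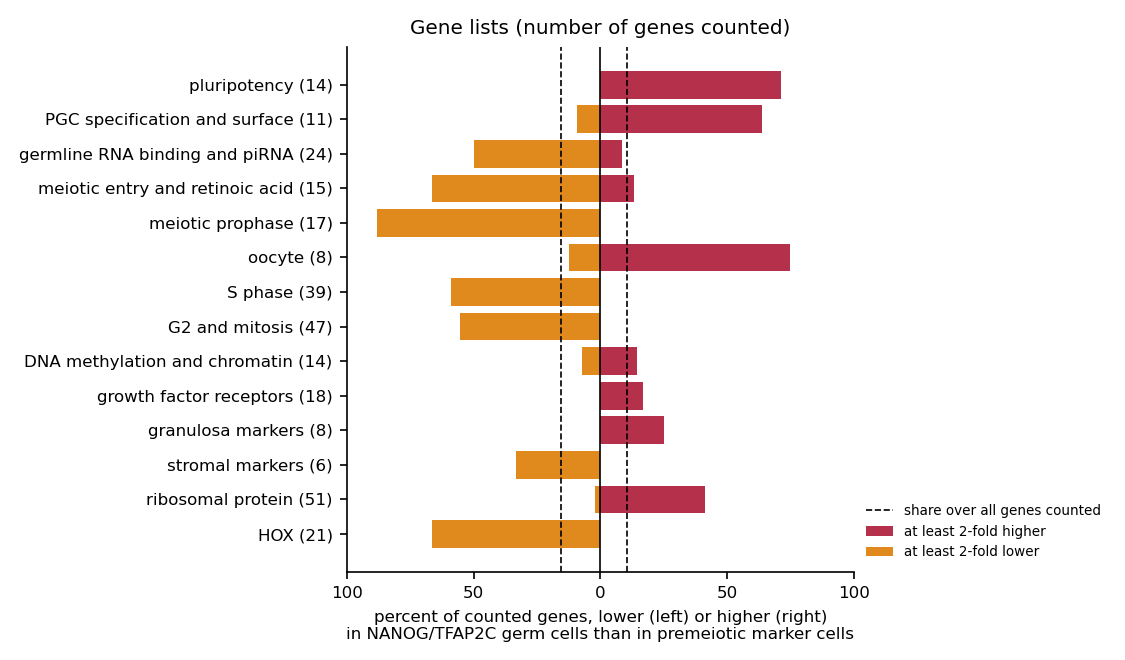
Percent of the counted genes of each list that were at least 2-fold higher (right) or lower (left) in NANOG/TFAP2C germ cells than in premeiotic marker cells, with the number counted in brackets. Dashed lines mark the shares over all 8906 genes, 15.6% lower and 10.4% higher. Pluripotency and specification genes exceed the higher line, and meiotic, cell cycle and HOX genes the lower one. The oocyte bar rests on 1 cell: without the deepest member, none of the 2 genes still counted is higher.

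Somatic RNA was present in the members and was measured with marker lists. A rule of the same form on 10 granulosa cell markers was met by 90 members (31.5%, 26.1 to 37.2%), and the stromal rule by 166. The granulosa rule was met by 100 of 567 premeiotic marker cells (17.6%, 14.6 to 21.0%) and by 83 of 931 prophase marker cells (8.92%, 7.16 to 10.9%). Of the shallower germ-marker-free cells, which include somatic cells, 27.9% met it. Summed granulosa markers had 348 CPM in members, 187 CPM in premeiotic marker cells, 151 CPM in prophase marker cells and 529 CPM in germ-marker-free cells. Per cell they ranged from 0 to 15.9 UMIs per 10000 in members, 0 to 23.2 in premeiotic, 0 to 45.1 in prophase and 0 to 75.1 in germ-marker-free cells.

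KITLG, the ligand of KIT, had 85.1 CPM in members and SOST, an inhibitor of WNT signals, 73.2 CPM, next to 108 and 71.0 CPM in germ-marker-free cells. Of 8 counted granulosa genes, 2 (INHBB and RSPO1) were higher than in premeiotic marker cells and none was lower, while without the deepest member 4 of 8 were higher. Of 6 stromal genes, 2 (DLK1 and POSTN) were lower and none higher. FOXL2, the defining granulosa factor, had 4 UMIs in all members, and no listed granulosa or stromal gene was at 0. Members that met the granulosa rule were deeper, with a median of 20754.5 UMIs against 12632 in the other 196. Granulosa and stromal UMIs per 10000 went together over the 286 members (Spearman's rho 0.61), which share libraries and depth. No doublet caller was run, and whether such a member was a germ cell with free RNA or a germ cell captured with a somatic cell was not tested.

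**Figure D5:**
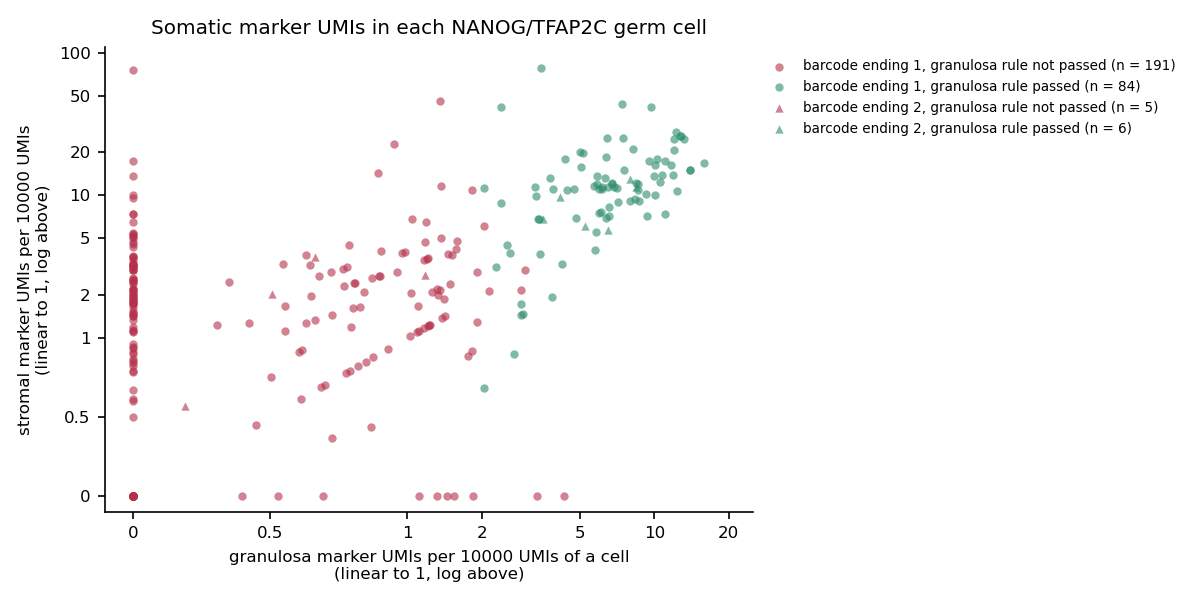
UMIs per 10000 of granulosa markers (horizontal) and stromal markers (vertical) in each of the 286 NANOG/TFAP2C germ cells, on axes that are linear to 1 and logarithmic above. Colour shows whether a cell met the granulosa rule (90 cells) and shape the barcode ending. Cells that met it also have more stromal UMIs, with a median of 11.4 per 10000 against 1.88.

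Leaving such cells out of both sets kept the germ cell contrasts. With the 196 members and 467 premeiotic marker cells that did not meet the granulosa rule, 1020 genes were higher (823 of them among the 922) and 1721 lower (1300 among the 1386). DPPA4 then had 310 against 56.0 CPM, GIP 439.8 against 14.5 CPM, SOX17 103 against 30.8 CPM and CRABP1 274 against 6.79 CPM. All 4 contrasts were larger than before. KITLG went to 6.47 CPM in members and 6.27 CPM in premeiotic marker cells, SOST to 5.45 and 4.96 CPM. INHBB, an inhibin subunit gene, had 22.5 against 4.44 CPM and so was still at least 2-fold higher.

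Other cell types' markers were unevenly present. Of 4 counted endothelial genes, 3 were higher in members and 1 lower. PECAM1, an adhesion molecule of endothelium, had 46.2 CPM in members, 5.17 CPM in premeiotic marker cells and 33.7 CPM in germ-marker-free cells, was in 50.0% of members, and had 49.1 CPM without the granulosa-rule members. TIE1, another endothelial gene, had 4 UMIs in all members, and VWF went from 29.3 to 8.80 CPM without the deepest member. Summed endothelial markers ranged from 0 to 24.0 UMIs per 10000 in members and 0 to 15.2 in premeiotic marker cells, with medians of 0.965 and 1.52. EGFL7, an endothelial secreted factor, was the lower gene, at 47.7 against 164 CPM. Macrophage markers were at 0 in 271 of 286 members. HBB, the beta globin gene, had 6042 UMIs in members, 70.3% of them in 2 cells, and a median of 2 UMIs per member.

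The same clustering gave 4 other sets, again as a description. The largest, of 104 cells, all with ending 1, had GIP at 546 CPM against 291 CPM in the other members, DPPA4 at 355 against 235 CPM and MKI67 at 35.5 against 144 CPM. Its leading gene was HBB, at 2087 against 805 CPM, and HBZ, an embryonic globin gene also among its leading genes, had 32.0 against 7.93 CPM. Over all members, 2 cells held 70.3% of the HBB UMIs, so the HBB level of this set need not hold for most of its cells. The part of globin RNA in this set was not tested. A set of 53 cells held all 5 members that met the premeiotic rule and had a median of 6.70 UMIs per 10000 of the meiotic prophase list, against 3.29 in the largest set. It was led by PADI6, ASTL and ZAR1, with 187, 169 and 113 UMIs. The deepest member, which fell in this set, held 187, 169 and 112 of these, so its leading genes rested on that cell. Sets of 77 and 14 cells held 68 and 14 of the members that met the granulosa rule. The set of 14 was led by the immediate early genes EGR3, EGR1 and EGR2, had a median of 34535.5 UMIs and had GIP at 119 CPM.

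Members differed in how far premeiotic genes were present. 218 had no UMI of ZGLP1, STRA8 and REC8, 40 had 1 and 28 had 2 or more. These sets had median depths of 13824.5, 21734 and 16883.5 UMIs. Genes outside both rules were compared between the first and the last set, without the deepest member, which belonged to the last. GIP had 398 CPM (378 to 420) in the 218 and 226 CPM (190 to 267) in the 27, and DPPA4 273 CPM (256 to 291) and 200.4 CPM (167 to 239). SYCP3 had 48.0 CPM (41.1 to 55.7) and 109 CPM (84.7 to 138), and SMC1B 40.2 CPM (33.9 to 47.3) and 135 CPM (107 to 167). RFX6 had 0 UMIs in the 218, which allows up to 1.03 CPM by the exact interval, and 38.5 CPM (24.7 to 57.3) in the 27, where 6 cells held all of its UMIs. The intervals of the sets did not overlap for these 5 named genes. They cover counting error only, not differences between cells, and no share over all genes is given beside them.

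The split by premeiotic UMIs went along with the barcode ending, since 3 of the 218 cells and 4 of the 27 had ending 2. With ending 1 alone (215 and 23 cells, an alternative chosen after seeing the data), RFX6 in the last set came down to 12.9 CPM (5.18 to 26.6). DPPA4 then had 276 CPM (259 to 294) and 221 CPM (183 to 264), intervals that overlapped. Those of GIP (379 to 421 and 212 to 298 CPM), SYCP3 (42.0 to 57.0 and 60.4 to 111 CPM) and SMC1B (34.1 to 47.8 and 81.1 to 138 CPM) did not.

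Co-detection was read in the 11991 cells of the table that reached 3000 UMIs, all thinned to that depth. NANOG was in 230 and ZGLP1 in 573 of them, and 36 had both, which is 15.7% of the NANOG cells (11.2 to 21.0%) and 6.28% of the ZGLP1 cells. Without thinning, 281 of 737 NANOG cells (38.1%) had ZGLP1. These NANOG cells come from the whole table and are not all members. Of the members, 16 of 282 thinned cells (5.67%, 3.28 to 9.05%) had ZGLP1, and 51 of 286 (17.8%) without thinning. ZGLP1 was in 4.78% of all thinned cells, in 17.0% of the DAZL cells (15.1 to 19.1%) and in 17.7% of the DPPA4 cells (14.5 to 21.3%). DAZL was in 41.3% of the NANOG cells (34.9 to 48.0%) and DDX4 in 41.7% (35.3 to 48.4%), against 12.2 and 17.7% of all thinned cells. A pair of RNAs in 1 barcode does not tell a single cell from 2 captured together.

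The 11 members with barcode ending 2 gave little weight to a comparison of endings. With the deepest cell left out, the other 10 had GIP at 218 CPM (165 to 284) and DPPA4 at 147 CPM (103 to 203), against 376 CPM (359 to 394) and 279.8 CPM (265 to 295) in the 275 with ending 1. SOX17 had 127 CPM (86.9 to 179) and 88.5 CPM (80.3 to 97.2), and these intervals overlapped. ZGLP1, no part of the members' rule, had 75.4 CPM (45.4 to 118) and 13.8 CPM (10.7 to 17.5). With barcodes ending in 1 alone, 882 genes were higher in members than in premeiotic marker cells and 1392 lower. The ending and the stage or fetus behind it cannot be told apart.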

How the data were processed

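Both ovaries of 1 Macaca fascicularis fetus at E84 and 1 at E116 were each made into 1 droplet-based 3′ library. The authors counted UMIs with Cell Ranger 3.0.2 on the Macaca_fascicularis_5.0 genome and used Seurat for filtering. The deposited table holds UMI counts, not normalised, of 18446 genes in 20967 cells, 148824177 UMIs in all. Checks showed whole numbers and cells above the stated limit of 3000 genes, so this limit was not applied. No removal of doublets or free RNA is stated for the table, and none was done. Barcode endings were kept as technical batches without a stage.

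Members, reference cells and gene lists were chosen with earlier results of these data known. UMIs were summed over cells and scaled to CPM. Genes with at least 10 CPM in 1 of 2 sets were counted as higher or lower at 2-fold. A set without a UMI was taken as 3 UMIs in a ratio. Intervals are exact at 95% (Poisson, binomial, and conditional binomial for ratios) and cover counting error only. Cells were thinned to 3000 UMIs with a fixed seed. Named genes are those of the lists with at least 10 CPM in 1 set, the 15 highest and 10 lowest ratios against premeiotic marker cells and the 10 highest against germ-marker-free cells (at least 20 CPM in the higher set), the 10 most abundant outside ribosomal protein and mitochondrial genes, and at most 2 genes without a symbol per direction. HOX and ribosomal protein genes were added after their values had been seen. Members were sub-clustered with scanpy 1.11.5 on 2000 variable genes without the rule genes (15 components, 15 neighbours, Leiden resolution 0.6). Analyses ran in Python 3.11.15, numpy 2.4.6, scipy 1.17.1, pandas 2.3.3 and matplotlib 3.10.9. The code for calls and intervals was checked on simulated Poisson sums. These leave out the clumping of UMIs in single cells, so the check does not cover it. NANOG and ribosomal protein genes have near-identical processed copies in primate genomes, so their counts are uncertain. Some genes that this rule names are not reported here. Genes without a symbol were not named beyond their identifiers, and no sequence or coordinate is given.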

Additional observations from a re-analysis of the deposited data

How the results depend on the processing

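Counts of genes and list medians were recomputed under 13 alternatives, 3 of them chosen after seeing the data (without cells of the granulosa rule, without the deepest member, and CPM without ribosomal protein and mitochondrial genes). Over these, 101 recomputed main counts stayed within 1.5 times and 8 did not. Within 200 to 3000 genes, 50 members remained and 1688 genes were higher than in 112 premeiotic marker cells, 700 of them among the 922. A floor of 4 rule UMIs per 10000 left 170 members. With a minimum of 30 CPM, 498 genes were higher and 907 lower than in premeiotic marker cells, 921 higher and 913 lower than in germ-marker-free cells, and 6 of 8 pluripotency genes were higher, because fewer genes were counted. The median log2 ratio of the granulosa markers turned from 0.91 to −0.67 within 200 to 3000 genes and to −0.74 without the fifth of members with most somatic UMIs. For the pluripotency, specification, germline RNA, meiotic, cell cycle and HOX lists, no alternative changed the sign of the median log2 ratio. The median of the oocyte list went from 1.67 over 8 genes to −0.42 over 2 genes without the deepest member, and over all alternatives from −1.13 to 3.89. Medians of the stromal (−0.67 to 0.69), receptor (−0.21 to 0.56) and DNA methylation and chromatin lists (−0.20 to 0.12) lay on both sides of 0, and the cause was not tested. Barcodes ending in 2 held 11 members, under the 20 required, and were not run alone. No paired analysis was possible because cells were not assigned to the labelled samples. Depth limits detection: DAZL was in 15.4% of members at 1000 UMIs, 37.2% at 3000, 59.2% at 6000 and 85.7% without thinning. With 1 fetus per stage, no value here measures variation between animals.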
